A study of Danio rerio with 12 samples.

Results

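Methylmercury (MeHg) is an organic form of mercury that binds thiol and selenol groups, crosses into the embryo and the brain, and is known above all as a poison of the developing nervous system. The fish embryo of this age swims, lives on its yolk and has a liver, pancreas and gut that are still developing, and muscle and pigment. Each of these tissues has its own marker genes, and stress pathways such as the Nrf2 response, the unfolded protein response and p53 signalling have known targets. The data described here compare whole wild-type zebrafish embryos held in 30 µg/L MeHg from 4 to 72 h post-fertilisation with embryos held over the same hours in 0 µg/L. All 6 libraries of these groups were taken, 3 a group, out of 12 in the series. All 32057 genes of the count table were considered. The remaining libraries, held in 6 or 50 µg/L MeHg, entered the fit for the estimate of spread. The design text gives the purpose as a search for marker genes of MeHg toxicity. The labels give neither the vehicle nor the number of embryos behind a sample, nor whether the 3 samples of a group had separate parents or vessels. The p-values therefore speak of the spread among these libraries alone, which may be technical.

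The 6 libraries held 15784965 to 22207603 gene counts each. Levels are given as CPM, counts relative to the library total after scaling, and differences as log2 fold changes ± SE, 30 µg/L minus control, so 1 on this scale is a doubling. Of the 19821 genes whose mean FPKM reached 0.5, 2665 (13.4%) were higher and 3438 (17.3%) lower at an edgeR adjusted p under 0.05. The FPKM mean was taken over all 12 libraries, so a gene can pass through 1 group where it is high. The change of such a gene, be it a rise or a fall, is not independent of the filter. The median over all tested genes was -0.04. The controls were uneven. Control replicate 3 had rank correlations of 0.927 and 0.944 to its fellow controls, which correlated at 0.991 with each other, and exposed libraries correlated at 0.993 to 0.995. The biological coefficient of variation was 0.312 among controls, 0.103 at 6 µg/L, 0.0781 at 30 µg/L and 0.0643 at 50 µg/L. The fit shared 1 spread per gene among these groups, so its p-values and SEs can understate the spread among controls. A fit on the compared groups only called 981 genes higher and 1333 lower. There the edgeR adjusted p of dla, named below, was 0.0012, against 8.9e-07 with all groups. Long genes were low in control replicates 1 and 2, where the longest eighth deviated from the shortest eighth by -0.73 and -0.56 on the log2 scale. This difference was 0.17 in control replicate 3 and 0.03 to 0.18 in the exposed libraries. It was -0.10 to 0.18 at 6 µg/L and 0.02 to 0.12 at 50 µg/L. In this measure control replicates 1 and 2 thus stood apart from all other libraries of the series. Why they did so, and which of the controls are unusual otherwise, cannot be told from these values. Every comparison was therefore made with 3 sets of controls, namely all of them, replicates 1 and 2, and replicate 3 alone. With replicates 1 and 2 alone, 29.7% of genes were higher and 32.2% lower, and with replicate 3 alone the shares were 17.5% and 17.7%. With every one of the 3 sets, 1544 genes (7.79%) were called higher and 1753 (8.84%) lower. Called in all 3 control sets, below, has this meaning. The sets share libraries, so they are not separate checks. Without control replicate 3, 5987 of the 6103 calls made with all controls were kept, so that step removed few. Against control replicate 3 alone the spread came from the exposed groups, which varied less than the controls. Calls against that library were thus made more easily than the spread among controls would allow. Tissue markers passed the filter to differing degrees. They did so for 35 of 35 fast muscle, 38 of 45 hepatocyte, 29 of 31 erythroid, 20 of 30 intestine and 10 of 20 exocrine pancreas genes. Such counts show RNA of these tissues but cannot settle that whole embryos were taken, which rests on the label. Of the 74 lists, 14 directions with 10 or more tested members had a count of 0 called by edgeR with all controls, and in these at most 4 members had an unadjusted p under 0.05, DESeq2 called 0 and limma at most 1. Those zeros did not all hold with fewer controls. Without control replicate 3 the same directions held up to 58 called members, and against it alone up to 7. Where counts of calls are given in parentheses, they are the rises and falls with these smaller control sets. Each list count is to be read beside the share over all genes with the same controls. With all controls these shares were 13.4% higher and 17.3% lower. Exposed and control libraries did not overlap for 7440 of the tested genes (37.5%), with the exposed above for 17.4% and below for 20.1%. Genes named below were picked for a small p or a large change, so a lack of overlap adds little to their calls. A gene's value against control replicate 3 alone is a log2 fold change, added where it lay over 1.5 times nearer to or further from 0 or where the call was lost, and a fit on the compared groups only took the spread from the 6 libraries. As these were whole embryos, fewer cells of a type and less RNA per cell cannot be told apart.

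**Figure D1:**
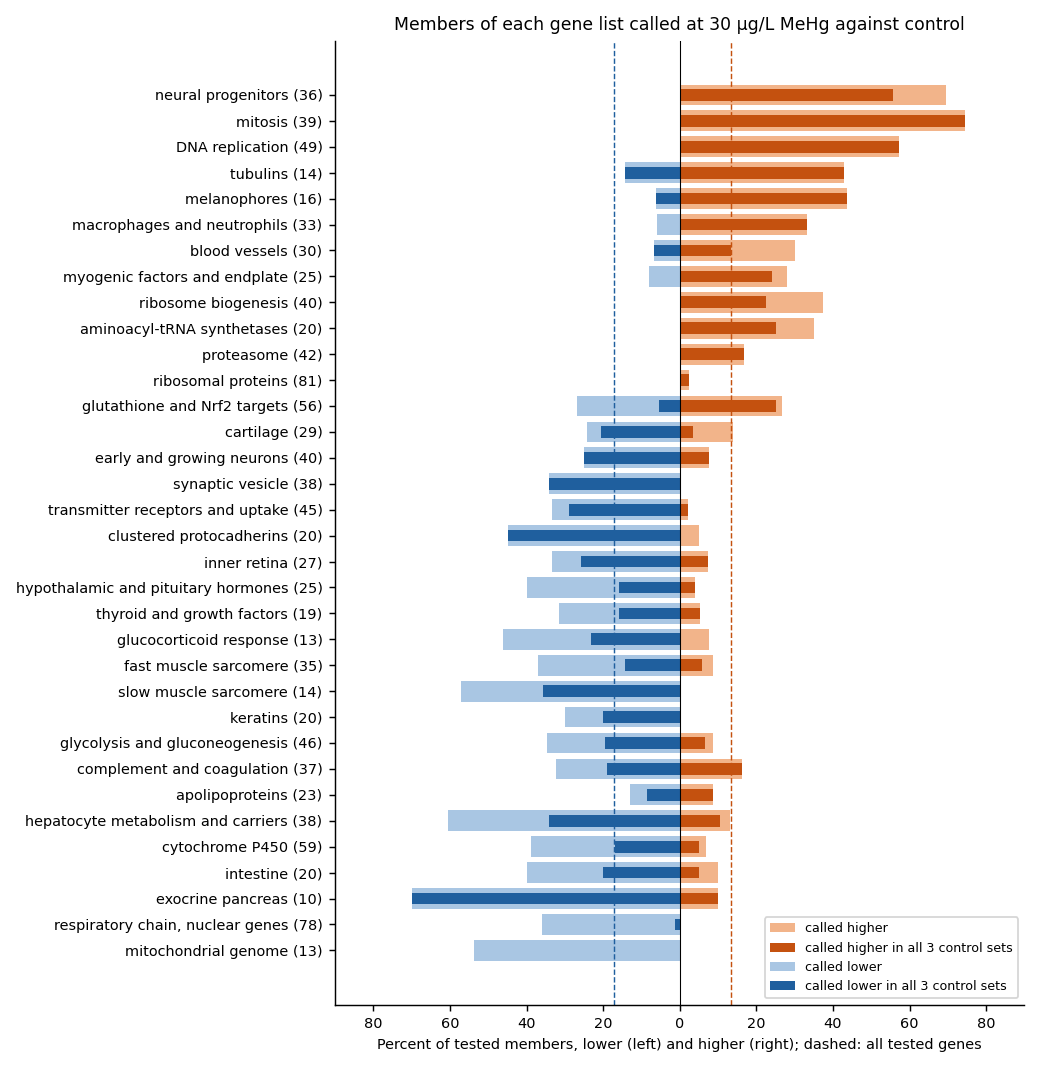
Percent of the tested members of 34 gene lists called higher (to the right) or lower (to the left) at 30 µg/L MeHg against control, with the number of tested members in parentheses. Wide pale bars use all controls, narrow dark bars count members called in all 3 control sets, and dashed lines mark the shares over all tested genes, 13.4% higher and 17.3% lower.

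Genes of the neural progenitor list that were called were all higher at 30 µg/L. Of 36 tested members of this list, 25 rose and 0 fell (29 higher and 0 lower without control replicate 3, 23 and 0 against it alone), against 13.4% and 17.3% of all genes, and 20 rose in all 3 control sets. The list median was 0.79 with all controls, 0.91 without control replicate 3 and 0.78 with that library alone. The Delta ligands, which activate Notch on neighbouring cells and hold them in the progenitor state, were among the leading members. dla (ENSDARG00000010791, chromosome 1, 54013457 to 54026352 in GRCz11) stood at 40.3, 45.2 and 41.2 CPM in the controls and at 116, 117 and 125 CPM in the exposed libraries, a rise of 1.49 ± 0.09 (edgeR adjusted p = 8.9e-07). dlb was measured at 44.9, 53.1 and 37.8 CPM in controls and 143, 145 and 149 CPM after exposure, higher by 1.68 ± 0.12 (edgeR adjusted p = 2.5e-06). For both ligands every exposed library lay far above every control, and the controls lay close together. Another ligand gene, dld, rose by 1.58 ± 0.14. insm1a, a zinc-finger factor of cells about to become neurons, went from 29.4, 31.8 and 44.6 CPM to 129, 142 and 134 CPM (1.94 ± 0.15, edgeR adjusted p = 4e-06). Control replicate 3 was the highest control for this gene and still far below the exposed libraries.

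**Figure D2:**
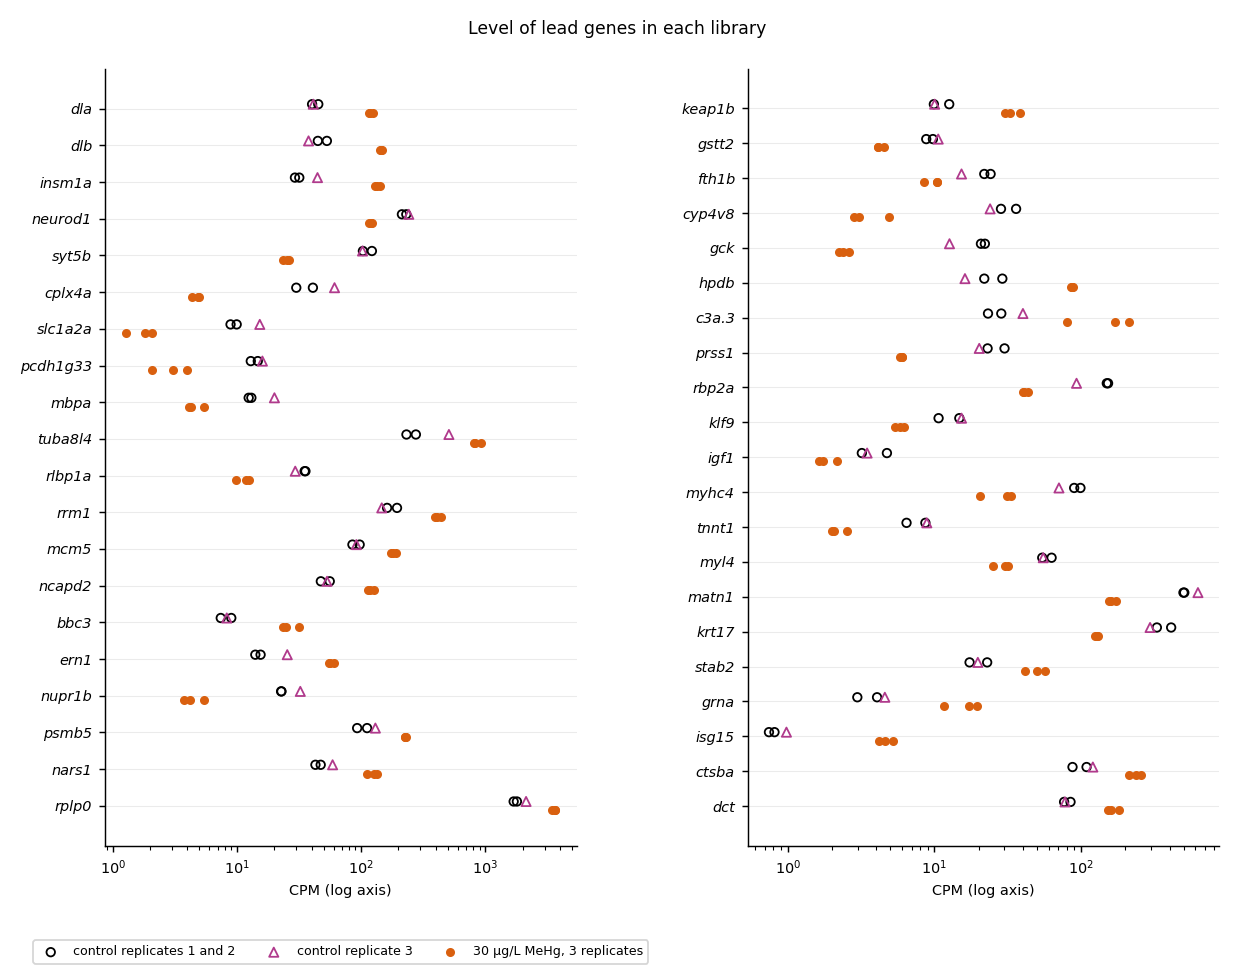
CPM of 41 genes in each of the 6 libraries on a log axis, with open circles for control replicates 1 and 2, open triangles for control replicate 3 and filled circles for the 30 µg/L libraries. For every gene drawn the exposed libraries lie on one side of all controls, for example dla at 116, 117 and 125 CPM against 40.3, 45.2 and 41.2 CPM. Over all tested genes this holds for 37.5%.

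Genes of neurons that have left the cycle moved in both directions. Among 40 early and growing neuron genes 10 fell and 3 rose (23 higher and 13 lower without control replicate 3, 5 and 18 against it alone), and each call made with all controls held in all 3 control sets, while the list median turned with the controls (0.22, then 0.36 and -0.29). neurod1 is a factor that drives neurons of the retina and brain and endocrine cells of the islet to differentiate. It read 213, 231 and 242 CPM in the controls. In the exposed libraries it read 117, 122 and 120.3 CPM, lower by 0.94 ± 0.09 (edgeR adjusted p = 1.8e-05). The groups did not overlap, as for 37.5% of all tested genes. How far the falls of photoreceptor genes, given below, enter the value of neurod1 was not tested. The relatives of neurod1 in the forebrain, neurod6a and neurod6b, changed by -1.14 ± 0.11 and -0.72 ± 0.10. ebf2, an early neuronal factor, went the other way, from 10.4, 18.7 and 23.3 CPM to 47.9, 56.1 and 55.6 CPM (1.60 ± 0.21, edgeR adjusted p = 2.1e-04).

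The direction of synaptic genes depended on the controls. In the synaptic vesicle list 13 of 38 tested members fell and 0 rose with all controls (17 higher and 13 lower without control replicate 3, 0 and 31 against it alone), and 13 falls held in all 3 control sets. The list median was -0.32 with all controls, 0.12 without control replicate 3 and -0.86 against that library alone, so no direction can be given for the list as a whole. syt5b, a synaptotagmin of the vesicle membrane, was at 122, 103 and 103 CPM in the controls and at 26.1, 23.7 and 25.4 CPM in the exposed libraries (-2.13 ± 0.15, edgeR adjusted p = 2.1e-06). cplx4a encodes a complexin, which clamps vesicle fusion and is known in mouse from the ribbon synapses of photoreceptors. Its controls stood at 40.9, 30.1 and 61.1 CPM and its exposed libraries at 4.98, 4.38 and 4.82 CPM (-3.22 ± 0.26, edgeR adjusted p = 5.7e-06). The vesicle GTPase gene rab3aa and the vesicle protein gene sv2bb fell as well, by 1.45 ± 0.12 and 1.04 ± 0.11. For scale, 20 of 24 tested photoreceptor genes fell, with a median of -3.06, and how far that loss enters the synaptic values was not tested.

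Receptors and transporters for neurotransmitters depended on the controls as well. Of 45 tested members 15 fell, 13 of them in all 3 control sets, and 1 rose (15 higher and 14 lower without control replicate 3, 1 and 35 against it alone). The median was -0.47 with all controls, 0.07 without control replicate 3 and -0.92 against it alone. slc1a2a, a glutamate transporter of the EAAT2 type, had 9.97, 8.89 and 15.3 CPM in controls and 1.83, 2.08 and 1.29 CPM after exposure (-2.73 ± 0.27, edgeR adjusted p = 2.7e-05). gabra6a, a GABA-A receptor subunit known in mammals from cerebellar granule cells, had 5.42, 5.13 and 7.67 CPM and then 1.03, 1.04 and 0.643 CPM (-2.75 ± 0.28, edgeR adjusted p = 2.7e-05). Both were lower in every exposed library than in any control, as were 20.1% of all tested genes. Their mean FPKM was 3.04 and 2.11 in controls and 0.447 and 0.307 at 30 µg/L, the latter under the filter of 0.5. Their falls are therefore not independent of the filter. The inhibitory receptor gene glrbb, for a glycine receptor subunit, fell by 1.00 ± 0.11.

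The clustered protocadherins, cell-surface proteins that give neurons individual identities, were mostly lower where they were called. Of 37 members of this family in the table, 20 were tested, 9 fell, all of them in all 3 control sets, and 1 rose (6 higher and 10 lower without control replicate 3, 0 and 12 against it alone). The median was -0.55, and it stayed near or below this without control replicate 3 (-0.53) and against it alone (-0.77). pcdh1g33 stood at 12.9, 14.7 and 16.1 CPM in controls and 3.05, 3.98 and 2.07 CPM in exposed embryos (-2.28 ± 0.19, edgeR adjusted p = 8e-06). The values for pcdh1g22, pcdh1g26 and pcdh1g9 were -2.10 ± 0.19, -1.57 ± 0.16 and -1.37 ± 0.19. Members of a cluster are near-identical over part of their length, so reads may have been split among them and each value is uncertain.

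Among 16 myelin and oligodendrocyte genes 4 fell, all in all 3 control sets, and 2 rose (4 higher and 4 lower without control replicate 3, 3 and 6 against it alone). mbpa, which encodes myelin basic protein of the central and peripheral sheath, was at 13.1, 12.5 and 20.1 CPM in controls and 4.27, 5.48 and 4.13 CPM after exposure (-1.72 ± 0.22, edgeR adjusted p = 1.4e-04). Its paralog mbpb and the sheath adhesion gene mag fell by 0.77 ± 0.13 and 0.94 ± 0.20, whereas cnp, an enzyme of the myelin membrane, was higher by 0.53 ± 0.10, a call lost once gene length was offset (0.29). In the glia list 5 of 15 fell and 3 rose. There gfap, the intermediate filament of astroglia and radial glia, was lower by 0.46 ± 0.12. slc1a3a, the EAAT1-type glutamate transporter of glia, was higher by 0.78 ± 0.15. mbpb and gfap stood at -0.44 and -0.70 against control replicate 3 alone. gfap was not called in a fit on the compared groups only.

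Tubulins, whose thiols are a known target of MeHg, moved in both directions. Of 14 tested members 6 rose and 2 fell, all in all 3 control sets. tubb4b went from 939, 1031 and 978 CPM to 1474, 1473 and 1416 CPM (0.57 ± 0.09, edgeR adjusted p = 7.8e-04). tuba8l4 had 232, 276 and 509.7 CPM in controls and 828, 918 and 818 CPM at 30 µg/L (1.33 ± 0.24, edgeR adjusted p = 0.0014). Here control replicate 3 lay between the other controls and the exposed libraries, and the difference was 1.74 without it and 0.76 against it alone. The falls were in tuba2, from 319, 308 and 364 CPM to 199, 228 and 199.8 CPM (-0.66 ± 0.10, edgeR adjusted p = 5.7e-04), and in tubb2 (-0.55 ± 0.11). tubb2 stood at -0.29 against control replicate 3 alone. tubb2 was not called in a fit on the compared groups only.

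Outside the photoreceptors, 9 of 27 genes of the inner retina fell and 2 rose (10 higher and 9 lower without control replicate 3, 3 and 17 against it alone), with 7 and 2 holding in all 3 control sets. The list median again depended on the controls, at -0.20, 0.27 without control replicate 3 and -0.59 against it. rlbp1a encodes a retinoid carrier of the pigment epithelium and does not mark inner retinal neurons. Its level dropped from 35.7, 35.1 and 29.5 CPM to 11.8, 12.5 and 9.87 CPM (-1.55 ± 0.13, edgeR adjusted p = 9.3e-06). pcp4a, a calmodulin-binding peptide of neurons, and barhl2, a factor of amacrine and ganglion cells, changed by -0.90 ± 0.12 and -0.69 ± 0.11.

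Genes of the cell cycle that were called were higher in the exposed embryos, with few exceptions. In the mitosis list 29 of 39 tested members rose, all 29 of them in all 3 control sets, and 0 fell (32 higher and 1 lower without control replicate 3, 39 and 0 against it alone). In the DNA replication list 28 of 49 rose, again all in all 3 control sets, and 0 fell (29 higher and 2 lower without control replicate 3, 48 and 0 against it alone). The medians were 0.91 and 0.60, at 0.77 and 0.39 without control replicate 3 and 1.11 and 1.01 against it alone. rrm1, the large subunit of ribonucleotide reductase, which makes the building blocks of DNA, was at 162, 195 and 147 CPM in controls and 412, 438 and 390.5 CPM in exposed libraries (1.30 ± 0.11, edgeR adjusted p = 9.3e-06). mcm5, part of the replicative helicase, was at 85.2, 97.4 and 91.6 CPM and then at 179, 191 and 174 CPM (0.99 ± 0.09, edgeR adjusted p = 1.4e-05). The helicase subunit mcm3 and the helicase loader cdc6 were higher by 1.23 ± 0.12 and 1.11 ± 0.11. Of the mitotic genes, ncapd2, a condensin subunit that compacts chromosomes, read 47.5, 56 and 53.2 CPM and then 114, 126 and 119 CPM (1.20 ± 0.09, edgeR adjusted p = 4.4e-06). Its partner smc2 rose by 0.99 ± 0.10, and the spindle genes tpx2 and kif22 by 1.17 ± 0.11 and 1.18 ± 0.12. No exposed library overlapped a control for any of these genes, as for 37.5% of all tested genes. The chromatin protein gene hmga1a, abundant in dividing cells, was higher by 0.78 ± 0.12. That neural progenitor and cell cycle genes were higher together is a measured fact, and how far the values of one list enter those of the other was not tested.

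The p53 and apoptosis list gave a mixed count, with 10 of 31 members higher, 4 lower (12 higher and 10 lower without control replicate 3, 15 and 3 against it alone) and a median of 0.07. bbc3 encodes Puma, a BH3-only protein that p53 induces and that starts mitochondrial apoptosis. It stood at 9.02, 7.42 and 8.29 CPM in controls and at 31.9, 23.7 and 24.8 CPM at 30 µg/L (1.70 ± 0.14, edgeR adjusted p = 6.9e-06). Control libraries lay within a narrow band and the exposed ones lay well above it. The executioner caspase gene casp3b was higher by 0.93 ± 0.14 and the stress kinase gene plk3 by 0.62 ± 0.09, while baxb, a pore-forming partner of Puma, was lower by 1.39 ± 0.20.

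The endoplasmic reticulum stress and ATF4 list had 8 of 39 members higher and 2 lower (14 higher and 12 lower without control replicate 3, 13 and 2 against it alone), against 13.4% and 17.3% of all genes. The members named first moved in opposite directions. ern1, the IRE1 sensor of unfolded protein, was at 15.5, 14.1 and 25.5 CPM in controls and 55.7, 60.8 and 56.4 CPM after exposure (1.65 ± 0.18, edgeR adjusted p = 4.9e-05). nupr1b, a small stress-induced chromatin protein, was at 22.7, 22.9 and 32.4 CPM and then 4.22, 3.75 and 5.42 CPM (-2.54 ± 0.20, edgeR adjusted p = 4e-06). Both differences were far larger than the spread in either group. The ATF4 targets trib3 and sesn2 were higher by 0.70 ± 0.12 and 0.64 ± 0.11.

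For protein turnover genes the counts and the list median depended on which controls were used. Of 42 proteasome genes 7 rose, all in all 3 control sets, and 0 fell (8 higher and 18 lower without control replicate 3, 37 and 1 against it alone). With all controls the rises were 16.7% of the list, near the 13.4% of all genes. The list median was 0.08 with all controls, -0.16 without control replicate 3 and 0.64 against it alone. psmb5, the catalytic subunit with chymotrypsin-like activity, was at 93, 112 and 130.4 CPM in controls and 232, 227 and 224 CPM in exposed embryos (1.03 ± 0.13, edgeR adjusted p = 1.2e-04). The ubiquitin receptor adrm1 rose by 0.82 ± 0.11 and the lid and base subunits psmd3 and psmd1 by 1.20 ± 0.20 and 1.33 ± 0.26, the last at 0.72 against control replicate 3 alone. Among 14 genes of the CCT chaperonin, which folds actin and tubulin, and of prefoldin, 4 rose and 1 fell (4 higher and 6 lower without control replicate 3, 11 and 0 against it alone). Its subunits tcp1, cct4 and cct5 were higher by 0.96 ± 0.14, 0.75 ± 0.12 and 0.45 ± 0.10. Of 28 co-chaperones 9 rose and 2 fell (10 higher and 8 lower without control replicate 3, 13 and 0 against it alone), with hspa4a, hsph1 and stip1 higher by 0.98 ± 0.17, 0.88 ± 0.15 and 0.41 ± 0.08. No fall of the chaperonin and prefoldin list or of the co-chaperone list is named, so the genes named do not stand for these lists. psmd3 and hspa4a stood at 0.73 and 0.59 against control replicate 3 alone. cct5 and stip1 were not called in a fit on the compared groups only.

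For the ribosome, 15 of 40 assembly factors rose and 0 fell (15 higher and 7 lower without control replicate 3, 28 and 0 against it alone), and 9 of the rises held in all 3 control sets. nop58 of the box C/D particles changed from 78, 83 and 88 CPM to 139, 132 and 133 CPM (0.69 ± 0.09, edgeR adjusted p = 1.5e-04). The assembly factors rrp1, nol6 and bysl were higher by 1.32 ± 0.20, 0.64 ± 0.10 and 0.60 ± 0.12. Aminoacyl-tRNA synthetases, which charge tRNAs with amino acids, had 7 of 20 members higher and 0 lower (7 higher and 2 lower without control replicate 3, 15 and 0 against it alone). Among them nars1, for asparagine, stood at 42.9, 47.3 and 59 CPM in controls and 127, 112 and 134 CPM at 30 µg/L (1.32 ± 0.14, edgeR adjusted p = 3.2e-05). The genes iars1, mars1 and eprs1 followed with 1.03 ± 0.17, 1.09 ± 0.20 and 1.03 ± 0.21. Of 81 ribosomal protein genes 2 rose and 0 fell with all controls, a count that the smaller control sets did not share (2 higher and 58 lower without control replicate 3, 76 and 0 against it alone), and their median went from -0.30 without control replicate 3 to 0.63 against it. The members called with all controls were rplp0, at 1693, 1798 and 2131 CPM and then 3655, 3657 and 3451 CPM (0.94 ± 0.12, edgeR adjusted p = 1.2e-04), and rpl3 (0.53 ± 0.11). The translation elongation factor gene eef1a1l1 was among the largest gains in CPM, from 4087, 4006 and 6761 to 9615, 9719 and 9289 CPM (0.95 ± 0.19, edgeR adjusted p = 0.0028). bysl, eprs1 and eef1a1l1 stood at 0.39, 0.53 and 0.51 against control replicate 3 alone. rpl3 was not called in a fit on the compared groups only.

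Few falls among oxidative phosphorylation genes held against control replicate 3 alone. Of 78 tested nuclear genes of the respiratory chain 28 fell and 0 rose (4 higher and 68 lower without control replicate 3, 7 and 1 against it alone), but 1 fell in all 3 control sets. All 13 protein genes of the mitochondrial genome were tested and 7 fell (0 higher and 12 lower without control replicate 3, 2 and 0 against it alone), 0 of them in all 3 sets. With gene length offset 15 of the 28 nuclear falls and 2 of the 7 mitochondrial falls kept their call. The medians, -0.43 and -0.49 with all controls, were -0.65 and -0.70 without control replicate 3 and 0.10 and 0.11 against it alone. As an example, ndufb2 of complex I had 104, 95.3 and 64.5 CPM in controls and 53.5, 57.5 and 51.3 CPM in exposed libraries, so that control replicate 3 stood next to the exposed group (-0.70 ± 0.15, edgeR adjusted p = 0.0054, and -0.24 against control replicate 3). The mitochondrial genes mt-nd5 and mt-nd6 gave -0.46 ± 0.15 and -0.57 ± 0.17 with all controls and -0.12 and -0.20 against that library. Leaving out other single libraries also ended these calls, for 7 libraries with mt-nd5 (edgeR adjusted p up to 0.15) and 5 with mt-nd6 (up to 0.10), and mt-nd5 lost its call with gene length offset (-0.33). ndufb2, mt-nd5 and mt-nd6 were not called in a fit on the compared groups only.

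**Figure D3:**
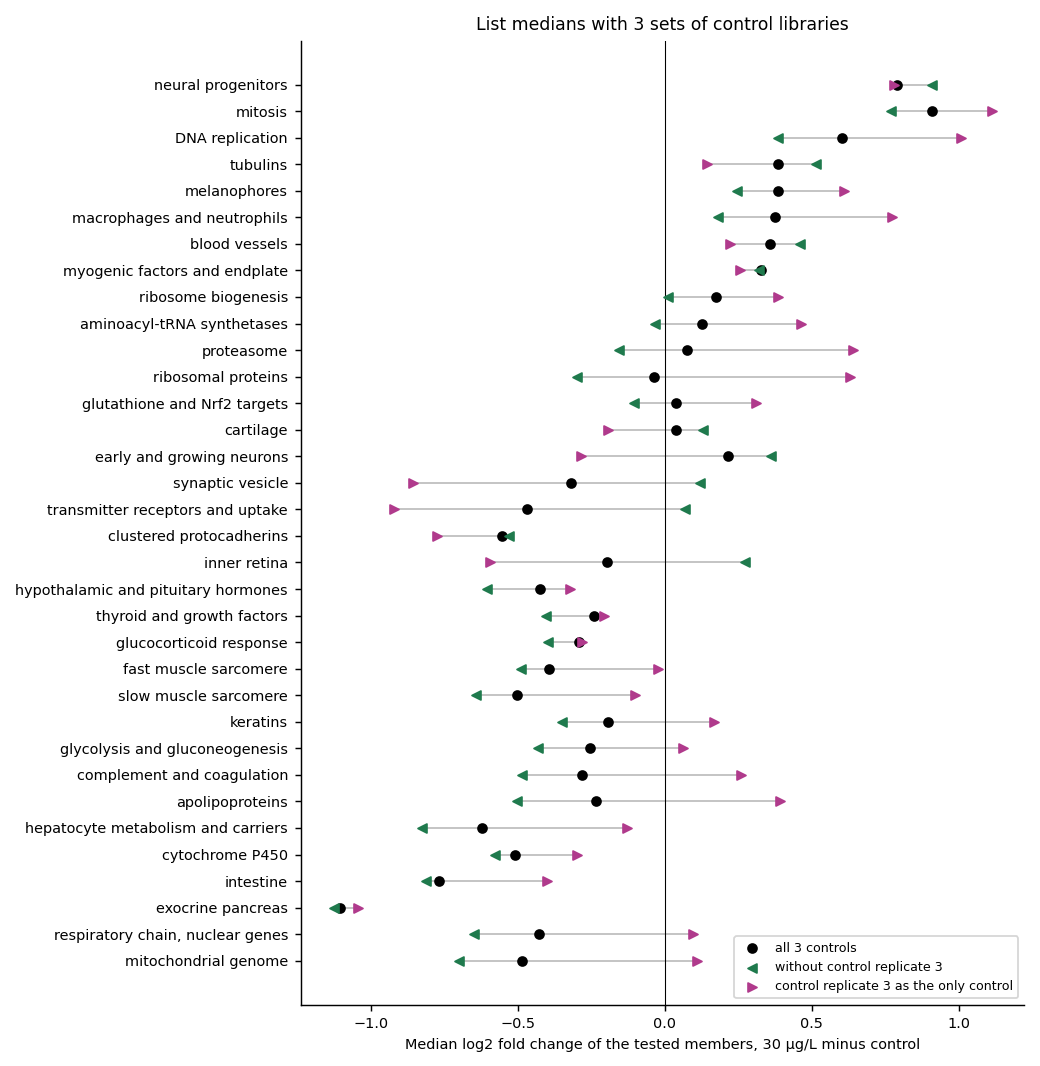
Median log2 fold change of the tested members of 34 gene lists, 30 µg/L minus control, computed with all controls (circles), without control replicate 3 (left-pointing triangles) and against that library alone (right-pointing triangles). Neural progenitors, mitosis, protocadherins and exocrine pancreas keep their side of 0, while ribosomal proteins run from -0.30 to 0.63 and synaptic vesicle genes from 0.12 to -0.86.

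The glutathione and Nrf2 list, the main thiol defence against mercury, was divided. Of 56 tested members 15 rose and 15 fell (17 higher and 24 lower without control replicate 3, 26 and 4 against it alone), and the median was 0.04. The rises held in all 3 control sets for 14 genes and the falls for 3. keap1b, the adaptor that sends Nrf2 for degradation, went from 12.6, 9.91 and 10 CPM to 30.5, 32.8 and 38.1 CPM (1.64 ± 0.15, edgeR adjusted p = 1.3e-05). sqstm1, the p62 autophagy receptor that binds Keap1, went from 16.5, 12.4 and 11.5 CPM to 36.6, 29.1 and 40.2 CPM (1.40 ± 0.16, edgeR adjusted p = 5.7e-05). All exposed libraries were above all controls for both, as for 17.4% of all tested genes. The pi-class glutathione transferase gstp2 rose by 1.58 ± 0.19, with reads possibly shared with its neighbour copy. gstt2, a theta-class transferase, showed the reverse, from 9.76, 8.79 and 10.6 CPM to 4.13, 4.15 and 4.5 CPM (-1.19 ± 0.15, edgeR adjusted p = 1.6e-04).

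Related pathways of sulfur and amino acid supply had 10 rises and 5 falls (12 higher and 11 lower without control replicate 3, 18 and 2 against it alone) among 28 genes of serine, one-carbon and transsulfuration metabolism. mat2ab, which makes the methyl donor S-adenosylmethionine, was at 6.58, 6.3 and 8.74 CPM in controls and 21.3, 17.1 and 23.2 CPM after exposure (1.51 ± 0.16, edgeR adjusted p = 4.2e-05). cbsb, which commits homocysteine to cysteine synthesis, was higher by 0.68 ± 0.13, a call lost once gene length was offset (0.44). The glycine cleavage genes gldc and amt parted, with 0.83 ± 0.15 and -0.82 ± 0.15. Of 20 amino acid transporters 4 rose and 2 fell (11 higher and 2 lower without control replicate 3, 6 and 2 against it alone). The neutral and cationic carriers slc1a4 and slc7a3a gave 0.69 ± 0.11 and 0.99 ± 0.21, and slc3a2b, the heavy chain shared by the carriers that take up the cysteine conjugate of MeHg in mammals, fell by 0.57 ± 0.13. Among 22 ABC transporters 7 rose and 2 fell (13 higher and 5 lower without control replicate 3, 5 and 4 against it alone). There abcb6a, abcc4 and abcg2d, pumps for porphyrins, nucleotides and xenobiotics, were higher by 1.10 ± 0.15, 0.63 ± 0.09 and 1.55 ± 0.23. The 2 falls among ABC transporters are not named, so these genes do not stand for the list. amt, slc7a3a, slc3a2b and cbsb stood at -0.52, 0.45, -0.27 and 1.02 against control replicate 3 alone. slc7a3a and slc3a2b were not called in a fit on the compared groups only.

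Of 14 genes of iron storage, export and heme breakdown 4 fell and 2 rose, all in all 3 control sets. fth1b, a ferritin heavy chain that stores iron, was at 24.1, 21.9 and 15.3 CPM in controls and at 10.4, 10.4 and 8.45 CPM in exposed libraries (-1.07 ± 0.17, edgeR adjusted p = 7.0e-04). The plasma iron carrier tfa and the constitutive heme oxygenase hmox2a fell by 0.92 ± 0.17 and 0.81 ± 0.15. aco1, the iron-regulatory protein, was higher by 0.68 ± 0.12. Control replicate 3 was the lowest control for fth1b, tfa and hmox2a. fth1b, tfa and hmox2a stood at -0.64, -0.44 and -0.37 against control replicate 3 alone.

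Liver genes that were called were mostly lower, and the list median lay further from 0 without control replicate 3. Of 45 hepatocyte genes on the list 38 were tested, 23 fell, 13 of them in all 3 control sets, and 5 rose (5 higher and 25 lower without control replicate 3, 7 and 14 against it alone). The median was -0.62, with -0.83 without control replicate 3 and -0.13 against it. tdo2a, which opens the ring of tryptophan, fell from 11.8, 10.3 and 10.2 CPM to 3.00, 3.06 and 2.98 CPM (-1.83 ± 0.16, edgeR adjusted p = 9.2e-06). The rises included enzymes of tyrosine breakdown. hpdb, which makes homogentisate, rose from 29, 21.9 and 16.1 CPM to 86.1, 87.3 and 84.7 CPM (1.95 ± 0.17, edgeR adjusted p = 1e-05). fah, the last enzyme of the pathway, rose from 11.8, 13.3 and 10.8 CPM to 41.4, 35.7 and 41.8 CPM (1.73 ± 0.14, edgeR adjusted p = 6.7e-06). For both enzymes the exposed values were far above those of every control.

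Of 59 tested cytochrome P450 genes 23 fell, 10 of them in all 3 control sets, and 4 rose (5 higher and 31 lower without control replicate 3, 10 and 12 against it alone), with a median of -0.51. cyp4v8, of a family that hydroxylates fatty acids, was at 36, 28.4 and 23.9 CPM in controls and at 2.82, 4.9 and 3.08 CPM after exposure (-3.04 ± 0.22, edgeR adjusted p = 2.5e-06). cyp8b1, the sterol 12-alpha-hydroxylase of bile acid synthesis, was at 11.8, 11.9 and 10.7 CPM and then at 3.33, 3.57 and 3.9 CPM (-1.67 ± 0.15, edgeR adjusted p = 9.3e-06). cyp2p8 fell by 2.12 ± 0.34, and cyp2aa7, which has close copies in the genome, rose by 1.04 ± 0.16. Mean FPKM of cyp2p8 was 1.69 in controls and 0.377 at 30 µg/L, the latter under the filter of 0.5. The fall of cyp2p8 is therefore not independent of the filter.

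Sugar metabolism had 16 falls and 4 rises among 46 genes (8 higher and 26 lower without control replicate 3, 11 and 13 against it alone), with 9 of the falls in all 3 control sets. gck, or glucokinase, the glucose sensor of liver and islet, stood at 20.7, 22.1 and 12.7 CPM in controls and 2.39, 2.25 and 2.62 CPM in exposed libraries (-2.92 ± 0.27, edgeR adjusted p = 1.5e-05). The glycolytic gene pgam1b fell by 1.42 ± 0.14, and the gluconeogenic genes g6pca.2 and fbp2 by 1.03 ± 0.12 and 0.93 ± 0.12. In cholesterol and fatty acid synthesis 9 of 36 genes fell and 4 rose (10 higher and 16 lower without control replicate 3, 4 and 7 against it alone). There nsdhl of the sterol pathway, the low-density lipoprotein receptor ldlra, the desaturase scdb and the acetyl-CoA synthetase acss2 were lower by 1.10 ± 0.16, 0.88 ± 0.15, 0.52 ± 0.11 and 0.53 ± 0.11. acss2 stood at -0.27 against control replicate 3 alone. scdb and acss2 were not called in a fit on the compared groups only.

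Secreted liver proteins were mixed. Of 37 complement and clotting genes 12 fell and 6 rose (6 higher and 23 lower without control replicate 3, 18 and 8 against it alone). Copies of complement C3 went apart. c3b.2 had 18.4, 20.3 and 16.3 CPM in controls and 5.63, 6.4 and 5.6 CPM at 30 µg/L (-1.64 ± 0.14, edgeR adjusted p = 8.6e-06). c3a.3 had 28.5, 23.2 and 40.1 CPM in controls and 213, 80.5 and 169 CPM at 30 µg/L, with exposed replicate 2 well below the other two (2.33 ± 0.30, edgeR adjusted p = 1.4e-04). The copies are similar and reads may be split between them. The clotting gene f10 and the complement protease gene cfd fell by 0.85 ± 0.09 and 1.81 ± 0.21, cfd standing at -1.11 against control replicate 3 alone. Apolipoproteins gave 3 falls and 2 rises among 23 genes with all controls (2 higher and 16 lower without control replicate 3, 11 and 2 against it alone). apoda.2, of the lipocalin apolipoprotein D type, fell by 2.03 ± 0.19 and apoa2 of high-density lipoprotein by 1.01 ± 0.18. The lipid transfer gene mttp was called with all controls (-0.45 ± 0.12) and stood at -0.10 against control replicate 3 alone, and its call also ended without any 1 of 4 libraries (control replicates 1 and 2, exposed replicates 2 and 3), with an edgeR adjusted p up to 0.064. apoa2 stood at -0.45 against control replicate 3 alone. mttp was not called in a fit on the compared groups only.

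Called genes of the exocrine pancreas and the intestine were mostly lower. Of 20 exocrine pancreas genes on the list 10 passed the filter, 7 fell, all in all 3 control sets, and 1 rose. The median hardly moved between control sets, at -1.10, -1.13 and -1.04. prss1, a trypsinogen, was at 30, 23 and 20.2 CPM in controls and at 5.87, 6.05 and 5.97 CPM in exposed embryos (-2.03 ± 0.18, edgeR adjusted p = 1e-05). Carboxypeptidase gene cpb1 and lipase gene cel.1 fell by 1.51 ± 0.19 and 2.62 ± 0.37. Mean FPKM of cel.1 was 2.54 in controls and 0.403 at 30 µg/L, the latter under the filter of 0.5. Its fall is therefore not independent of the filter, and the list count may hold further such genes. In the intestine list 8 of 20 tested genes fell and 2 rose (3 higher and 12 lower without control replicate 3, 3 and 5 against it alone). rbp2a, the retinol carrier of enterocytes, read 152, 149 and 92.9 CPM in controls and 40.5, 43.1 and 40 CPM after exposure (-1.67 ± 0.17, edgeR adjusted p = 2.4e-05). The brush-border peptidase dpp4 and the goblet cell gene agr2 changed by -1.09 ± 0.16 and -1.12 ± 0.21, agr2 standing at -0.41 against control replicate 3 alone. dab2, an endocytic adaptor of enterocytes that absorb whole proteins, was higher by 0.84 ± 0.15. Islet genes were near the shares of all genes, with 17.6% lower and 11.8% higher against 17.3% and 13.4%. Of 17 islet genes 3 fell and 2 rose (6 higher and 8 lower without control replicate 3, 1 and 4 against it alone), and the glucagon gene gcga, on both the islet and intestine lists, was lower by 0.88 ± 0.19 with all controls but not called against control replicate 3 (-0.35). dab2 stood at 0.50 against control replicate 3 alone. gcga was not called in a fit on the compared groups only.

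Hormone and growth genes that were called were mostly lower. Of 25 tested hormones of hypothalamus and pituitary 10 fell, 4 of them in all 3 control sets, and 1 rose (2 higher and 13 lower without control replicate 3, 2 and 4 against it alone). gh1, growth hormone of the pituitary, was at 5.83, 4.93 and 3.79 CPM in controls and 2.16, 0.922 and 1.19 CPM in exposed libraries (-1.74 ± 0.33, edgeR adjusted p = 0.0022). The opioid precursor penka and the peptide genes adcyap1a and adcyap1b changed by -1.08 ± 0.19, -1.13 ± 0.23 and -0.57 ± 0.10. Of 19 thyroid and growth factor genes 6 fell and 1 rose (4 higher and 9 lower without control replicate 3, 2 and 5 against it alone). igf1, which growth hormone induces in the liver, was at 4.75, 3.2 and 3.48 CPM and then 1.64, 1.73 and 2.16 CPM (-1.03 ± 0.24, edgeR adjusted p = 0.0075). The binding protein gene igfbp5a and the thyroid hormone deiodinase gene dio1 fell by 1.54 ± 0.25 and 1.97 ± 0.38, igfbp5a standing at -0.85 against control replicate 3 alone. igfbp2a was lower by 0.85 ± 0.19 with all controls, and was not called against control replicate 3 alone (-0.14). adcyap1b stood at -0.34 against control replicate 3 alone. igfbp2a was not called in a fit on the compared groups only.

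Of 13 tested targets of the glucocorticoid receptor 6 fell and 1 rose, and 3 of the falls held in all 3 control sets. klf9, a direct target and Krüppel-like factor, was at 14.8, 10.7 and 15.3 CPM in controls and 5.87, 5.36 and 6.24 CPM at 30 µg/L (-1.22 ± 0.19, edgeR adjusted p = 5.2e-04). fkbp5, which restrains the receptor, was at 88.1, 70 and 75 CPM and then at 46.1, 47.7 and 56.2 CPM (-0.64 ± 0.11, edgeR adjusted p = 0.0014). The leucine zipper gene tsc22d3 fell by 0.89 ± 0.12, and hsd20b2, which breaks cortisol down, by 0.50 ± 0.14 with all controls and not against control replicate 3 alone (-0.28). Leaving out control replicate 1 or 2 or any exposed library also ended the call for hsd20b2 (edgeR adjusted p up to 0.081). hsd20b2 was not called in a fit on the compared groups only.

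In skeletal muscle called genes of the contractile fibre were mostly lower and those of the myogenic programme mostly higher. Of 14 tested slow fibre genes 8 fell and 0 rose (0 higher and 11 lower without control replicate 3, 3 and 5 against it alone), and of 35 fast fibre genes 13 fell and 3 rose (6 higher and 23 lower without control replicate 3, 6 and 7 against it alone). In all 3 control sets 5 slow and 5 fast genes fell. The medians shrank against control replicate 3, from -0.50 to -0.10 in slow and from -0.39 to -0.02 in fast fibres. myhc4, a fast myosin heavy chain, was at 89.6, 98.8 and 70.5 CPM in controls and 20.5, 31.2 and 33.2 CPM in exposed libraries (-1.61 ± 0.17, edgeR adjusted p = 4.2e-05). Its gene belongs to a family of close copies, so its reads may be split. tnnt1, the slow troponin T, was at 8.68, 6.45 and 8.87 CPM and then at 2.53, 2.08 and 2.02 CPM (-1.85 ± 0.26, edgeR adjusted p = 3.0e-04). Troponin I genes tnni2b.2 (fast) and tnni1d fell by 1.13 ± 0.12 and 1.13 ± 0.19, and the slow genes smyhc2 and mybpc1 by 0.84 ± 0.11 and 1.30 ± 0.19. The fast myosin-binding protein C genes parted, with mybpc2a at -1.92 ± 0.20 and mybpc2b at 0.99 ± 0.12. Mean FPKM of mybpc2a was 1.07 in controls and 0.277 at 30 µg/L, the latter under the filter of 0.5. The fall of mybpc2a is therefore not independent of the filter. The parvalbumins pvalb1 and pvalb2, calcium buffers of fast fibres, were called with all controls (-0.95 ± 0.22 and -0.78 ± 0.19) but stood at -0.16 and -0.16 against control replicate 3, whose level was near that of the exposed libraries. pvalb1 and pvalb2 were not called in a fit on the compared groups only.

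Among 25 myogenic and endplate genes 7 rose, 6 of them in all 3 control sets, and 2 fell (13 higher and 5 lower without control replicate 3, 9 and 0 against it alone). The list median of 0.33 became 0.07 with gene length offset, where 6 of the rises kept their call. myod1, which commits cells to muscle, was at 15, 18.6 and 13.4 CPM in controls and 21.8, 25.5 and 23.2 CPM after exposure (0.58 ± 0.13, edgeR adjusted p = 0.0064). Homeobox gene six4b and the muscle progenitor gene pax3a were higher by 0.91 ± 0.17 and 0.90 ± 0.24. In the list of Z disc and calcium release genes 6 of 31 rose and 4 fell (17 higher and 9 lower without control replicate 3, 3 and 3 against it alone). Their median of 0.24 became -0.06 with gene length offset, where 3 of the rises kept their call. The myosin chaperone partner smyd1a rose by 0.52 ± 0.11, a call lost once gene length was offset (0.25). For ttn.1, whose transcript is among the longest known, the difference was 0.66 ± 0.16 on the counts and -0.25 once gene length was offset, so its direction is not settled. In the heart list 3 of 23 genes fell and 2 rose (5 higher and 10 lower without control replicate 3, 9 and 2 against it alone). There the myosin genes myl4 and myh7 fell by 0.98 ± 0.13 and 0.79 ± 0.11, and the calcium pump gene atp2a2b, at 26.8, 33.1 and 84 CPM in controls, was at 115, 115 and 129.5 CPM in exposed libraries (1.32 ± 0.33, edgeR adjusted p = 0.012). Its control replicate 3 lay well above the other controls. The difference was 1.98 without that library and 0.53 against it alone, and the call ended without control replicate 2 (1.12, edgeR adjusted p = 0.050). ttn.1 and myh7 stood at 0.30 and -0.52 against control replicate 3 alone. myod1, pax3a, ttn.1 and atp2a2b were not called in a fit on the compared groups only.

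Cartilage genes fell in 24.1% and rose in 13.8% of tested members, and bone and tooth genes in 17.6% and 5.88%. Of 29 tested cartilage genes 7 fell, 6 of them in all 3 control sets, and 4 rose (13 higher and 8 lower without control replicate 3, 2 and 12 against it alone), against 17.3% and 13.4% of all genes, with a median of 0.04. matn1, a matrilin that links the fibres of cartilage matrix, stood at 497, 504 and 624 CPM in controls and 155, 174 and 158 CPM in exposed embryos (-1.74 ± 0.13, edgeR adjusted p = 3.7e-06). mia, a small protein secreted by chondrocytes, stood at 25.1, 21.6 and 17.7 CPM and then 5.07, 7.21 and 5.69 CPM (-1.84 ± 0.17, edgeR adjusted p = 1.6e-05). The chondrocyte genes ucmab and snorc fell by 0.82 ± 0.11 and 1.04 ± 0.15. None of the 4 rises in the cartilage list is named, so these genes do not stand for the list. In the bone and tooth list, where 3 of 17 tested genes fell and 1 rose (3 higher and 8 lower without control replicate 3, 1 and 3 against it alone), the collagen gene col10a1a and the enamel gene enam were lower by 0.78 ± 0.11 and 0.75 ± 0.14. enam stood at -0.50 against control replicate 3 alone.

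Matrix genes moved in both directions. Collagens of fibrils and basement membranes had 7 rises and 1 fall among 32 genes (22 higher and 2 lower without control replicate 3, 2 and 4 against it alone), but 2 of the rises held in all 3 control sets. Their median of 0.37 became 0.08 with gene length offset. col4a4 and col4a6 of basement membrane were higher by 1.00 ± 0.21 and 0.74 ± 0.17, col4a6 not being called against control replicate 3 alone (0.49), while col8a1b, a short-chain collagen, fell by 1.89 ± 0.23. Other matrix proteins and collagen enzymes had 14 rises and 6 falls among 38 (20 higher and 10 lower without control replicate 3, 11 and 3 against it alone), of which 4 rises and 2 falls held in all 3 control sets. The laminin chain gene lama1 stood at 4.34, 4.68 and 9.36 CPM in controls and 16.3, 20.9 and 25.7 CPM after exposure (1.76 ± 0.32, edgeR adjusted p = 0.0016). Fibronectin gene fn1b rose by 1.01 ± 0.19, and the periostin gene postna fell by 0.93 ± 0.14. fn1b and postna stood at 0.58 and -0.60 against control replicate 3 alone. Mean FPKM of col8a1b was 1.34 in controls and 0.353 at 30 µg/L, the latter under the filter of 0.5. The fall of col8a1b is therefore not independent of the filter.

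In the skin 6 of 20 keratin genes fell and 0 rose (1 higher and 13 lower without control replicate 3, 7 and 5 against it alone). krt17 was at 410.1, 328 and 295 CPM in controls and 129, 124 and 128 CPM in exposed libraries (-1.44 ± 0.12, edgeR adjusted p = 8.7e-06). The keratins krt1-19d, krt92 and krt94 were lower by 1.67 ± 0.19, 0.83 ± 0.13 and 0.84 ± 0.16, krt1-19d standing at -1.08 against control replicate 3 alone. Of 23 epidermal barrier genes 5 rose and 1 fell (7 higher and 8 lower without control replicate 3, 8 and 1 against it alone). Here the 1 fall was the tight-junction gene cldnb, lower by 0.59 ± 0.11. Of the 5 rises only tp63, the factor of basal epidermis, is named, so these genes do not stand for the list. tp63 was higher by 0.69 ± 0.20 with all controls but not against control replicate 3 alone (0.16). The call for tp63 also ended without control replicate 1 or 2 or exposed replicate 2 or 3 (edgeR adjusted p up to 0.086). Among 28 ionocyte genes, 6 fell and 5 rose (10 higher and 9 lower without control replicate 3, 6 and 2 against it alone). The ammonia channel gene rhcgb fell from 3.73, 2.74 and 1.87 CPM to 0.329, 0.404 and 0.918 CPM (-2.28 ± 0.42, edgeR adjusted p = 0.0019), at low counts and with -2.90 without exposed replicate 3, and foxi3b, which specifies ionocytes, was higher by 0.49 ± 0.11. The calcium channel gene trpv6 was lower by 0.85 ± 0.20 with all controls and not called against control replicate 3 alone (-0.45). Of 20 hair cell and otolith genes 3 fell, among them s100t (-0.64 ± 0.14), and 1 rose, namely atoh1a, the factor that makes hair cells (1.30 ± 0.18). The hair cell shares, 15% lower and 5% higher, were both under the 17.3% and 13.4% of all genes. krt94, cldnb and s100t stood at -0.38, -0.39 and -0.37 against control replicate 3 alone. Mean FPKM of rhcgb was 1.59 in controls and 0.317 at 30 µg/L, the latter under the filter of 0.5. The fall of rhcgb is therefore not independent of the filter. tp63, foxi3b, trpv6 and s100t were not called in a fit on the compared groups only.

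Endothelial genes had 9 rises and 2 falls among 30 tested (19 higher and 8 lower without control replicate 3, 5 and 3 against it alone), with 4 and 2 in all 3 control sets. The endothelial median of 0.36 became 0.16 with gene length offset, where 7 of the rises kept their call. stab2, a scavenger receptor of veins that clears particles from blood, was at 17.4, 22.9 and 19.8 CPM in controls and 49.8, 41.6 and 56.7 CPM in exposed libraries (1.30 ± 0.14, edgeR adjusted p = 3.3e-05). Its relative stab1 and the angiogenic gene egfl7 rose by 0.88 ± 0.12 and 0.95 ± 0.15, and plvapa, of the diaphragms of fenestrated vessels, fell by 1.12 ± 0.19. Of 29 erythroid genes 3 fell and 1 rose with all controls (1 higher and 15 lower without control replicate 3, 17 and 2 against it alone). With all controls 10.3% of the erythroid list fell and 3.4% rose, both under the 17.3% and 13.4% of all genes. The embryonic globin gene hbae1.1 fell by 0.74 ± 0.15, with reads possibly shared with its copies.

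Leukocyte genes that were called were mostly higher. Of 33 tested macrophage and neutrophil genes 11 rose, all in all 3 control sets, and 2 fell (12 higher and 6 lower without control replicate 3, 18 and 1 against it alone). The median was 0.37, 0.18 without control replicate 3 and 0.77 against it. grna, a progranulin of macrophages, was at 2.98, 4.07 and 4.59 CPM in controls and 17.2, 11.6 and 19.6 CPM at 30 µg/L (2.04 ± 0.22, edgeR adjusted p = 4.1e-05). mpeg1.2, a pore-forming protein of phagocytes, was at 9.15, 10.7 and 9.99 CPM and then 20.4, 18 and 20.4 CPM (0.98 ± 0.11, edgeR adjusted p = 6.5e-05). The progranulin-like gene grn1 and the leukocyte plastin lcp1 rose by 2.78 ± 0.36 and 1.12 ± 0.15. Exposed replicate 2 was the lowest exposed library for these 4 genes. Lysosome and autophagy genes gave 9 rises and 6 falls of 45 (14 higher and 19 lower without control replicate 3, 17 and 3 against it alone). The protease gene ctsba went from 87.2, 109 and 120.0 CPM to 256, 213 and 235 CPM (1.15 ± 0.12, edgeR adjusted p = 3.9e-05), ctsc and psap, the cathepsin C and prosaposin genes, rose by 1.35 ± 0.15 and 0.97 ± 0.12, and the lysosomal channel gene mcoln1a fell by 0.82 ± 0.11.

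Only 13 of 32 interferon response genes passed the filter, of which 4 rose and 2 fell (5 higher and 2 lower without control replicate 3). Their median was 0.13 with all controls, 0.16 without control replicate 3 and -0.03 against it alone. isg15, a ubiquitin-like protein induced by interferon, was at 0.746, 0.813 and 0.981 CPM in controls and 5.26, 4.21 and 4.59 CPM in exposed libraries (2.45 ± 0.23, edgeR adjusted p = 1.5e-05). irf1b rose by 1.31 ± 0.24, whereas the signal transducers stat1a and stat2 fell by 0.60 ± 0.10 and 0.62 ± 0.14. Among 28 chemokine and receptor genes 4 rose and 5 fell (4 higher and 9 lower without control replicate 3, 10 and 4 against it alone). With all controls 14.3% of this list rose and 17.9% fell, near the 13.4% and 17.3% of all genes. ccl34a.4 was at 2.44, 2.39 and 2.63 CPM and then 14.5, 8.07 and 14.4 CPM (2.31 ± 0.21, edgeR adjusted p = 1.3e-05). By contrast ccl34b.1 and ccl25b fell by 2.13 ± 0.28 and 1.20 ± 0.16. Of 20 matrix metalloproteinases and inhibitors 6 fell, mmp30 among them (-0.77 ± 0.13), and 2 rose (6 higher and 8 lower without control replicate 3). Their median was -0.14 with all controls, 0.05 without control replicate 3 and -0.33 against it alone. ccl25b stood at -0.75 against control replicate 3 alone. stat2 was not called in a fit on the compared groups only.

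Called genes of the black pigment cells were mostly higher. Of 16 melanophore genes 7 rose, all in all 3 control sets, and 1 fell (8 higher and 3 lower without control replicate 3, 11 and 1 against it alone). dct, which makes an intermediate of melanin, was at 76.5, 84.6 and 77.6 CPM in controls and 152, 182 and 159.6 CPM after exposure (1.05 ± 0.10, edgeR adjusted p = 2.1e-05). tyr, the rate-limiting enzyme tyrosinase, was at 13.4, 12.4 and 16.6 CPM and then at 28.6, 34.6 and 31.7 CPM (1.16 ± 0.14, edgeR adjusted p = 1.3e-04). The lineage factor mitfa and the melanosome exchanger slc24a5 rose by 1.09 ± 0.18 and 0.96 ± 0.17. No exposed library overlapped a control for these 4 genes, as for 37.5% of all tested genes. Of 18 genes of silver and yellow pigment cells 3 rose and 1 fell (3 higher and 5 lower without control replicate 3, 10 and 2 against it alone).

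Large changes also fell on single genes with no role assigned here. zgc:111983 (ENSDARG00000006588, chromosome 1, 45173421 to 45177401 in GRCz11) was at 53, 46.6 and 27.8 CPM in controls and 0.329, 0.115 and 0.0918 CPM at 30 µg/L (-7.81 ± 0.60, edgeR adjusted p = 3.6e-06). si:ch211-281l24.3 (ENSDARG00000068637, chromosome 15, 40137564 to 40175894) was at 47.5, 39.2 and 39.4 CPM and then 0.516, 0.231 and 0.275 CPM (-6.89 ± 0.32, edgeR adjusted p = 1.7e-07). Both were nearly lost from all exposed libraries. Their mean FPKM was 18.4 and 3.39 in controls and 0.0767 and 0.0267 at 30 µg/L, the latter under the filter of 0.5. These falls are therefore not independent of the filter. The log2 fold change of zgc:111983 was -8.60 without exposed replicate 1 and -7.19 against control replicate 3 alone. In the other direction, si:dkey-11k2.7 (ENSDARG00000087017, chromosome 7, 24366962 to 24373662) went from 1.36, 2.08 and 2.01 CPM to 53.9, 25.3 and 46.4 CPM (4.50 ± 0.28, edgeR adjusted p = 7.6e-07), and exposed replicate 2 again held the lowest exposed value. Among abundant genes the cytoplasmic actin gene actb2 rose, from 1851, 1656 and 3722 CPM to 4747, 4880.0 and 5131 CPM (1.03 ± 0.26, edgeR adjusted p = 0.01). Its control replicate 3 lay between the groups, and the difference was 1.47 without it and 0.42 against it alone. actb2 was not called in a fit on the compared groups only.

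The summed levels of whole lists show how control replicate 3 stood to the other libraries. Relative to the mean of the exposed libraries, the summed CPM of ribosomal protein genes was 0.24 and 0.13 higher in control replicates 1 and 2 on the log2 scale and 0.62 lower in control replicate 3. Proteasome genes gave 0.02, -0.02 and -0.64 in the 3 controls. Synaptic vesicle genes gave -0.10, 0.01 and 0.88, and transmitter receptor genes -0.29, -0.17 and 0.82. For the respiratory chain control replicate 3 lay next to the exposed libraries at -0.06, and the other controls lay at 0.39 and 0.34. By contrast all controls stood below the exposed libraries for neural progenitors, at -0.68, -0.60 and -0.57, and for mitosis, at -0.83, -0.75 and -1.12.

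**Figure D4:**
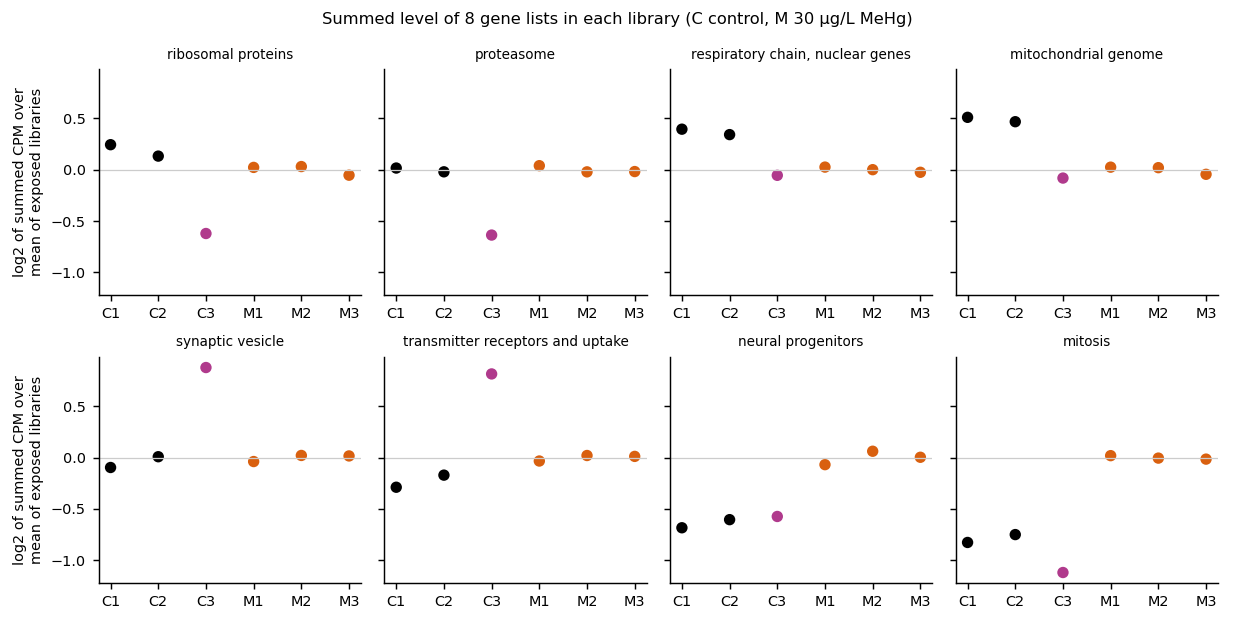
Summed CPM of the tested members of 8 gene lists in each library, as log2 of the ratio to the mean of the exposed libraries, with control replicates (C1 to C3) and 30 µg/L replicates (M1 to M3) on the x axis. Control replicate 3 departs from the other controls for ribosomal, proteasome, synaptic and receptor genes, while all controls lie below 0 for neural progenitors and mitosis.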

How the data were processed

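The authors deposited raw read counts, as whole numbers with no normalization, and FPKM values for 32057 Ensembl genes in 12 libraries. FPKM per the file headers is a column beside each count, and it equals the count over exonic gene size and summed counts within 0.005 for 100% of values. Poly(A) RNA from whole embryos was copied with random primers and read as pairs of 150 bases, per the labels' protocols. HISAT2 2.0.1, HTSeq 0.6.1, cutadapt 1.9.1, FastQC 0.10.1 and DESeq2 are listed without roles, with the build GRCz11, per the submitters' processing notes. The annotation release, strand setting and handling of reads with several matches are not stated there, which leaves overlapping, antisense and near-identical genes uncertain.

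Counts of all 12 libraries were fitted with edgeR 4.0.16 in R 4.3.3 (TMM scaling, quasi-likelihood F test, 4 groups, no covariate), and 30 µg/L was contrasted with control. Tests were two-sided, with Benjamini-Hochberg adjustment over 19821 genes of mean FPKM at least 0.5 and a threshold of 0.05. CPM values use the TMM-scaled totals. The SE is the log2 fold change over the square root of F and is approximate. Alternatives used DESeq2 1.42.0, limma 3.58.1 on log2(FPKM + 1) and log2(FPKM + 0.1), other scalings, filters and thresholds, gene length offsets, a replicate block and leaving out each library. Where 1 control was left, it was assumed to vary like the other groups. Library totals of 15784965 to 22207603 counts in the compared groups set the counting error.

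The 74 gene lists hold 2291 genes. Of 1885 entries written by symbol, 1811 were found in the table, 20 by a synonym in the reference tables, and 54 were not found. The comparison and the lists were chosen with earlier results of these data known, so no list is independent evidence. Genes named were up to 4 called members with the smallest p in each list, or the highest members where none was called, plus the 15 largest changes and the 10 largest changes in CPM in each direction, and only part are printed. Some genes that the rule selects are not reported here. Genes on which the earlier work had reported were passed over. Gene sequences were not used here.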

Additional observations from a re-analysis of the deposited data

How the results depend on the processing

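The counts of genes higher and lower at 30 µg/L, 2665 and 3438, stayed within 1.5 times under median-of-ratios scaling, library totals as the only scaling, a minimum mean FPKM of 2, no filter on expression, DESeq2, limma with either pseudocount, robust estimation, gene length offsets, the replicate block with all groups and control replicate 3 as the only control. They were 1221 and 1768 at an adjusted p under 0.01, 636 and 1012 where the log2 fold change also had to reach 1 in size, and 981 and 1333 in a fit on the compared groups only. Leaving out each library in turn gave 1530 to 5882 higher and 2100 to 6377 lower. The lowest counts came without 30 µg/L replicate 3 and the highest without control replicate 3, and without control replicate 2 they were 1755 and 2339. No gene called with all controls was called in the opposite direction under any alternative. Same-numbered control and exposed libraries deviated together only weakly (correlations 0.12, 0.01 and 0.10 for replicates 1, 2 and 3), so the numbers are not taken to pair the libraries. As a hint from the data only, control replicates 1 and 3 correlated best with their own number, and control replicate 2 did not. The replicate block gave 3018 higher and 3385 lower, with gene length offsets 3023 and 3257, and on the compared groups only 1228 and 1147. Of the 210 genes named, all were called with all controls and 198 in all 3 control sets. Only ttn.1 reversed, to -0.25 with gene length offsets and -0.22 with the replicate block added to them, while cnp, cbsb, smyd1a and mt-nd5 lost their calls with these offsets. The fit on the compared groups only ended the call for 28 genes and control replicate 3 as the only control for 12. Library totals of 15784965 to 22207603 counts limit the low genes most, such as grn1, isg15 and rhcgb.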

Other observations

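Further lists had calls in both directions, to be read beside 13.4% higher and 17.3% lower over all tested genes. Of 27 clock genes 6 rose and 6 fell (12 higher and 6 lower without control replicate 3, 3 and 13 against it alone). The nuclear receptor genes rorcb and nr1d2b, which drive and repress clock transcription, were lower by 0.80 ± 0.10 and 0.52 ± 0.09. cry5, a light-dependent photolyase of the cryptochrome family, was higher by 0.82 ± 0.13. Of 19 retinoic acid genes 3 rose, all in all 3 control sets, and 2 fell (8 higher and 6 lower without control replicate 3, 7 and 0 against it alone). The degrading enzyme gene cyp26c1 and the carrier crabp2b were higher by 0.85 ± 0.15 and 0.83 ± 0.15. Of 54 tested lens genes 7 rose and 6 fell (26 higher and 15 lower without control replicate 3, 6 and 5 against it alone), with the connexin cx23 at 0.91 ± 0.12 and the crystallin crygm2d11, which has near-identical copies, at -1.07 ± 0.12. In the hox list 9 of 48 genes fell and 1 rose (6 higher and 25 lower without control replicate 3). The falls were 18.8% of the list, near the 17.3% of all genes, and 4 of them kept their call with gene length offset. The list median was -0.20 with all controls, -0.05 with gene length offset and 0.05 against control replicate 3 alone. Of 27 genes of inflammation and wounding 4 rose and 6 fell (9 higher and 7 lower without control replicate 3, 3 and 4 against it alone), of 21 hypoxia genes 2 rose and 5 fell (5 higher and 8 lower without control replicate 3, 6 and 4 against it alone), and of 24 monoamine genes 2 rose and 2 fell (7 higher and 5 lower without control replicate 3, 2 and 7 against it alone). crabp2b stood at 0.51 against control replicate 3 alone.

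Some genes described above did not follow the order of concentrations. They are given as mean ± SD of 3 libraries with no test, and were picked after their values were seen. pcdh1g33 was at 14.6 ± 1.56 CPM in controls, 34.6 ± 1.88 CPM at 6 µg/L, 3.03 ± 0.956 CPM at 30 µg/L and, at 50 µg/L, 6.19 ± 0.522 CPM. ern1 was at 18.4 ± 6.2, 20.2 ± 0.893, 57.6 ± 2.79 and 21.3 ± 0.878 CPM in the same order, so that its highest mean was at 30 µg/L. casp3b was at 19.5 ± 2.16, 15.3 ± 2.59, 37.1 ± 1.15 and 18.6 ± 1.81 CPM, also highest at 30 µg/L. nupr1b was at 26 ± 5.56, 18 ± 3.00, 4.46 ± 0.86 and 16.5 ± 1.62 CPM, lowest at 30 µg/L. si:ch211-281l24.3 was at 42 ± 4.75, 28.5 ± 2.65, 0.341 ± 0.154 and 9.98 ± 3.57 CPM, again lowest at 30 µg/L. cyp2aa7 was at 5.9 ± 0.787, 0.127 ± 0.0384, 12.1 ± 1.59 and 11.2 ± 1.33 CPM, lowest at 6 µg/L.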
